A study of Trametes gibbosa with 15 samples.

Results

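Mycelium of the white-rot fungus Trametes gibbosa (also called Lenzites gibbosa), strain CB-1, was compared after 7 days with poplar chips and before any wood was added. The day 7 group has 3 libraries and the control group has 3 libraries, so 6 of the 15 libraries of the series carry the comparison. They were chosen by their labels, and the other 9 libraries (3 each at days 3, 5 and 11 with wood) serve to show which changes were first seen or largest at day 7.

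All cultures were of 1 strain and stood for 10 days at 25 °C in a low-nitrogen asparagine and succinate medium with added glucose. The day 7 cultures then received 2 g of chips of a hybrid poplar (Populus simonii × P. nigra) and were grown for 7 more days. The control cultures received no wood and were harvested at the end of those first 10 days. Each group consisted of 15 bottles, which the labels describe as giving 3 biological replicates. The control is therefore also the younger culture. Wood and the added age of the culture cannot be told apart, since a wood-free culture of the same age as day 7 was not analysed here.

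White-rot fungi break down lignin as well as cellulose and hemicellulose. They do so with secreted enzymes: peroxidases and laccases act on lignin, and glycoside hydrolases and lytic polysaccharide monooxygenases act on the polysaccharides. Low nitrogen is a classical laboratory setting for studying the ligninolytic system of such fungi. The deposited tables give a gene only as an identifier, without a product, so each gene below is described by its level and behaviour, no role can be stated, and no enzyme family was followed.

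Total estimated counts were 35419940 to 45927894 in the day 7 libraries and 32472274 to 35046269 in the control libraries. The codes in the labels split the libraries into 2 series. The 3 controls and replicate 1 of day 7 belong to the first series, and replicates 2 and 3 of day 7 belong to the second. A term for the series was part of the fit, and within the first series alone day 7 is represented by 1 library. Spearman correlations across genes were 0.969 to 0.979 between day 7 libraries and 0.971 to 0.973 between control libraries. Between day 7 and control libraries they were 0.952 to 0.954 for replicate 1 of day 7 and 0.943 to 0.948 for replicates 2 and 3.

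Of 11386 genes tested, 541 were higher and 880 lower at day 7 than in the control (edgeR quasi-likelihood test; a call needed at least 2-fold change and a Benjamini-Hochberg adjusted p below 0.05). The called genes are 12.5% of those tested, 4.75% higher and 7.73% lower. The higher genes had a median log2 fold change of 1.33 and the lower genes one of -1.62, against 0 over all genes tested. Large changes were more often downward: 294 genes fell and 81 rose by 4-fold or more, and 112 fell and 37 rose by 8-fold or more. A further 2003 genes passed the adjusted p with a change of less than 2-fold.

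The split between directions depended on the scaling. When libraries were scaled by their totals instead of TMM factors, 1830 genes were higher and 464 lower, and the median log2 fold change of all genes was 0.48. All 541 of the genes called higher with TMM factors, and 464 of the 880 called lower, were then called in the same direction. The TMM factors were 1.05 to 1.11 in the day 7 libraries and 0.786 to 0.808 in the control libraries. Every direction given below is relative to the bulk of the genes. The FPKM values given below carry neither TMM factors nor the series term, so their ratios can differ from the fitted changes.

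**Figure D1:**
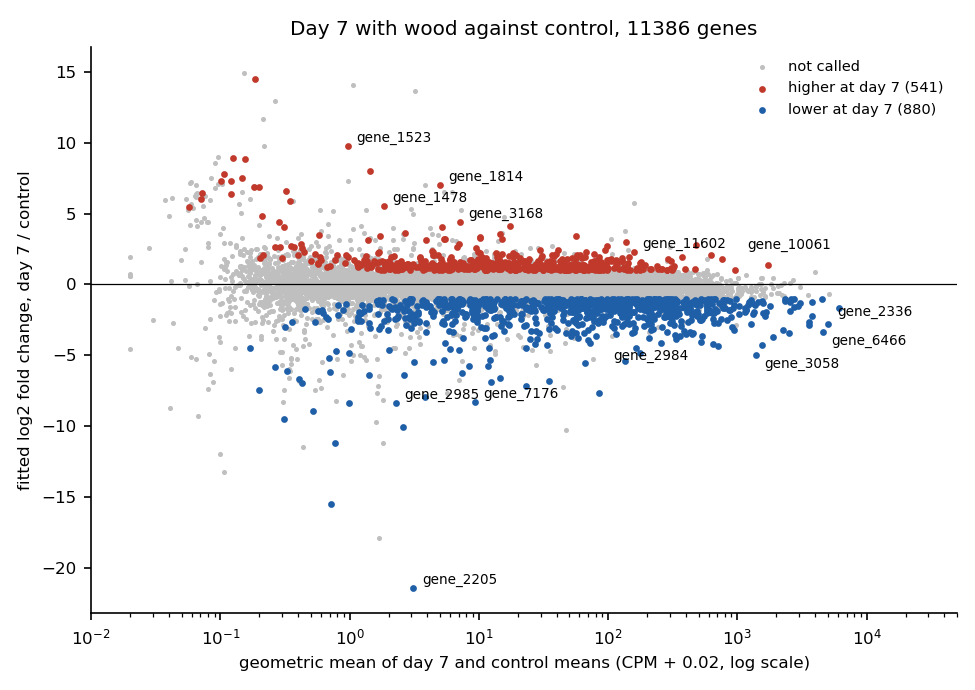
Fitted log2 fold change of day 7 over control (vertical axis) against the geometric mean of the 2 group means in scaled counts (CPM, log scale) for 11386 genes. The 541 called higher genes are red, the 880 called lower genes are blue and genes not called are grey; the lower genes reach further to the right, among the most abundant transcripts, than the higher genes do.

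The lower genes included many of the most abundant transcripts. When the tested genes were split into 5 equal bins by mean abundance, 335 of the 2277 genes in the top bin (14.7%) were lower at day 7, against 3.73% to 7.69% in the other bins. Higher genes made up 2.99% of the top bin and 3.82% to 5.97% of the others. The median log2 fold change was -0.18 in the top bin and 0.01 to 0.08 in the other bins.

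The most abundant genes also held a smaller share of counts at day 7. In each library the 10 top genes were summed, and they held 3.95% ± 0.34 of counts at day 7, against 7.76% ± 0.23 in the control (SD, n = 3 each). The top 100 held 16.7% ± 0.1 at day 7 and 26.5% ± 0.3 in the control (SD, n = 3 each). The groups did not overlap in either share, and the exact two-sided permutation test gave p = 0.1 for both, the smallest that 3 against 3 libraries allow. Both shares were also below the control at the other wood days. At days 3, 5 and 11 the top 10 held 5.05%, 4.62% and 3.83% of counts, and the top 100 held 18.7%, 17.8% and 17.2%. The 880 lower genes together held 12.8% ± 0.5 of counts at day 7, against 34.2% ± 0.7 in the control, and the 541 higher genes held 4.35% ± 0.52 at day 7 and 1.34% ± 0.16 in the control (SD, n = 3 each). The last 4 shares describe genes chosen on the same libraries.

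Among the most abundant genes that fell, gene_6466 took more counts than any other gene in each of the 3 control libraries. It had 599, 217 and 352 FPKM at day 7 (fragments scaled by transcript length and mapped fragments, replicates 1 to 3) and 3535, 3689 and 4521 FPKM in the control. Its log2 fold change was -3.39 (SE 0.34, adjusted p = 4.4e-05). The groups were far apart, and the highest day 7 value was in replicate 1, the library of the first series.

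Gene_5621 had 1023, 480 and 655 FPKM at day 7 and 5686, 4865 and 5808 FPKM in the control (log2 fold change -3.22, SE 0.40, adjusted p = 0.00017). For gene_2336 the values were 1284, 465 and 555 FPKM at day 7 and 5251, 5155 and 5736 FPKM in the control (log2 fold change -2.82, SE 0.28, adjusted p = 3.9e-05). Gene_2185 fell less, with 2426, 777 and 668 FPKM at day 7 and 5522, 4839 and 4472 FPKM in the control (log2 fold change -1.85, SE 0.43, adjusted p = 0.0074). In these genes too replicate 1 was the highest day 7 library, and no day 7 library reached a control library.

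By difference of mean FPKM, gene_10061 rose most, to 907, 1420 and 1493 FPKM at day 7, against 193, 247 and 455 FPKM in the control (log2 fold change 1.35, SE 0.33, adjusted p = 0.0093). Gene_11602 had 864, 902 and 596 FPKM at day 7 and 106, 212 and 119 FPKM in the control (log2 fold change 2.26, SE 0.35, adjusted p = 0.00069). Gene_7945 had 553, 591 and 532 FPKM at day 7 and 54.1, 127 and 141 FPKM in the control (log2 fold change 1.92, SE 0.32, adjusted p = 0.0011). These 3 genes were called higher at all 4 wood days, and each had its largest fitted change at day 3. At day 3 the log2 fold changes were 1.49 for gene_10061, 2.44 for gene_11602 and 2.42 for gene_7945. Day 7 against day 3 did not pass the edgeR test for any of them (adjusted p = 0.40 to 0.87). All 3 stood clear of the control in every day 7 library, which the rule that named them required of scaled counts.

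Gene_3007 was the exception among the abundant higher genes. It had 1245 FPKM in replicate 1 of day 7 but 300 and 286 FPKM in replicates 2 and 3, against 134, 311 and 110 FPKM in the control. The highest control library thus lay above both day 7 libraries of the second series on the FPKM scale, although the scaled counts of the groups did not overlap. The log2 fold change was 1.82 (SE 0.39, adjusted p = 0.0047), and without replicate 1 of day 7 it was 1.20 (adjusted p = 0.12).

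**Figure D2:**
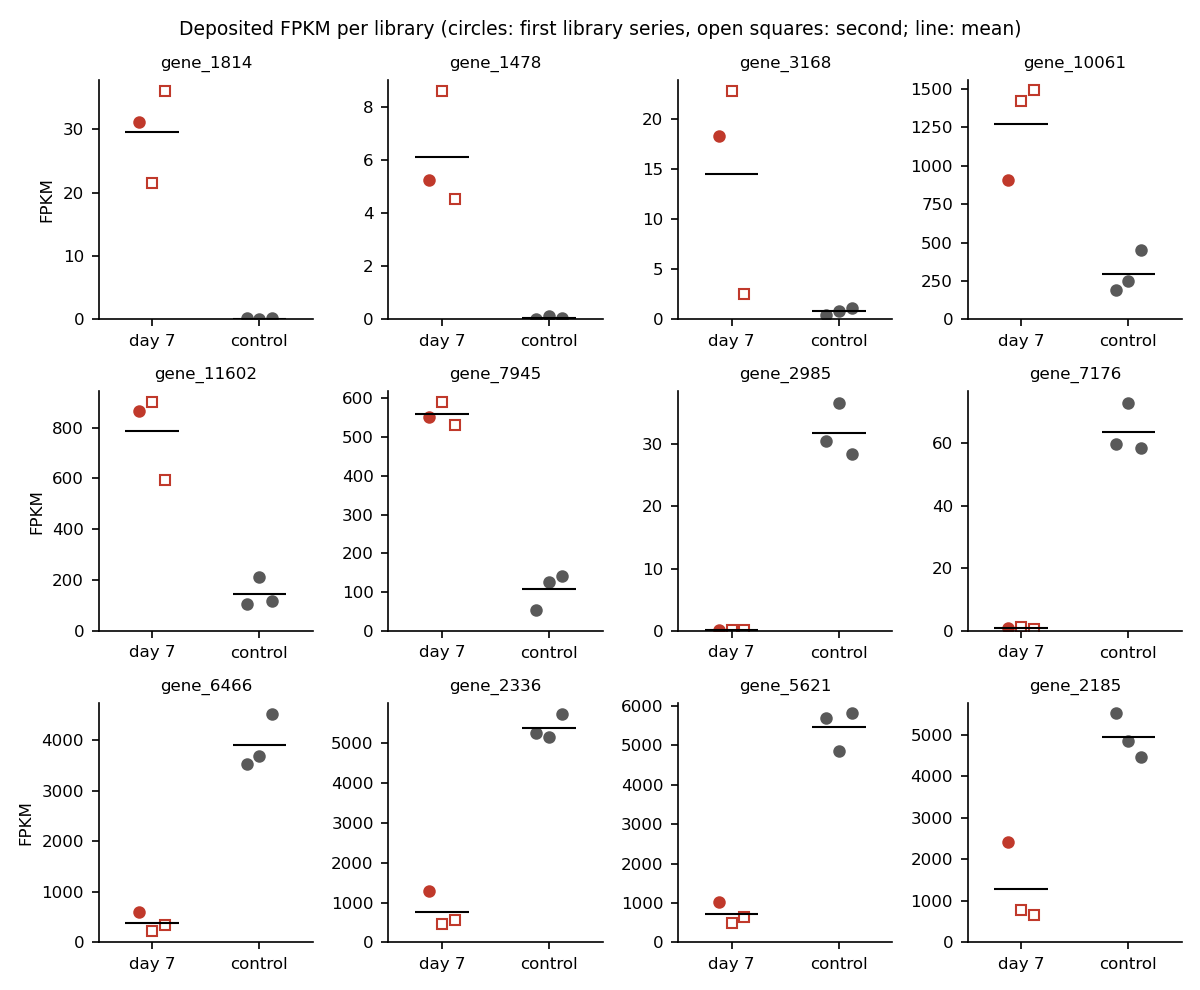
Deposited FPKM of 12 named genes in the 3 day 7 libraries (red, left in each panel) and the 3 control libraries (grey, right), on linear axes from 0. Filled circles are libraries of the first series, open squares those of the second, and the line is the mean of the 3 libraries. In each of the 12 panels no day 7 value lies within the range of the control values. The genes were named only among those without overlap of scaled counts.

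Other called genes were near 0 in one of the groups. Gene_1814 had 31.1, 21.6 and 36.0 FPKM at day 7 and 0.184, 0 and 0.238 FPKM in the control (log2 fold change 7.03, SE 1.11, adjusted p = 0.00088). Gene_1478 had 5.23, 8.58 and 4.55 FPKM at day 7 and 0.0299, 0.127 and 0.0437 FPKM in the control (log2 fold change 5.56, SE 0.46, adjusted p = 1.2e-05), and without control replicate 2 its log2 fold change was 6.35. Day 7 against day 3 did not pass the test for either gene (adjusted p = 0.89 for gene_1814 and 0.30 for gene_1478). Gene_1814 was fitted at 7.36, 7.02, 7.03 and 6.29 and gene_1478 at 4.83, 5.46, 5.56 and 5.78 on the log2 scale over the control at days 3, 5, 7 and 11.

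Gene_1523 had 1300, 651 and 827 counts at day 7 and 2, 0 and 0 counts in the control. It varied at other wood days, with 676, 3730 and 568 counts at day 5 and 1886, 6 and 1980 counts at day 11. Thus 1 day 11 library was nearly as low as the control. Summed over libraries and scaled by TMM, the ratio of day 7 to control was 821, with a 95% exact counting interval of 227 to 6780 that covers counting error only. Its adjusted p was 0.0061, and its fitted log2 fold change of 9.77 (SE 2.16) depends on how near-zero counts are treated. It was 9.02 without replicate 1 of day 7, and 12.98 without control replicate 1, which leaves no count in the control.

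A further 11 genes called higher had no count in any control library. The 4 described here were chosen after their values were seen. Gene_10359 had 28, 58 and 78 counts at day 7 and was at least 32.3-fold higher on the TMM scale, taking 3 counts over the control group as the floor. On the same floor Trametes_gibbosa_newGene_632 (28, 57 and 63 counts at day 7) was at least 29.1-fold higher, gene_7678 (10, 32 and 27 counts) at least 13.6-fold and Trametes_gibbosa_newGene_132 (8, 15 and 9 counts) at least 6.30-fold. The floor leaves out the counting error of the day 7 counts. With it, the 95% exact counting limits were 26.0-fold for gene_10359, 23.4-fold for Trametes_gibbosa_newGene_632, 10.8-fold for gene_7678 and 4.84-fold for Trametes_gibbosa_newGene_132. All 4 were also called at days 3, 5 and 11. Trametes_gibbosa_newGene_632 overlaps Trametes_gibbosa_newGene_633 on the opposite strand, and reads from the shared stretch cannot be told apart without strand.

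In the other direction gene_2985 was nearly off at day 7, with 5, 4 and 4 counts, against 1221, 1361 and 955 counts in the control. Its log2 fold change was -8.36 (SE 0.24, adjusted p = 4.4e-09), and it was fitted between -8.22 and -8.36 at all 4 wood days. The deposited counts are estimates given as whole numbers, which limits how finely such low values can be read. Gene_7176 had 0.906, 1.09 and 0.686 FPKM at day 7 and 59.8, 73.01 and 58.5 FPKM in the control (log2 fold change -8.32, SE 1.82, adjusted p = 0.0058). Its fitted value was -10.54 without replicate 1 of day 7 and -7.67 without the unnumbered day 5 library.

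Gene_10199 and gene_1203, chosen by the same rule, had an uneven control. The first had 1, 2 and 2 counts at day 7 and 518, 352 and 2 counts in the control, so control replicate 3 was as low as the day 7 libraries in counts (log2 fold change -11.20, SE 2.58, adjusted p = 0.0077). Gene_10199 had 23, 1231 and 30 counts at day 3, and without the series term its log2 fold change was -8.09. Summed over libraries and scaled by TMM, its ratio of control to day 7 was 295. The 95% exact counting interval of that ratio, 126 to 911, covers counting error only. Gene_1203 had 3, 1 and 1 counts at day 7 and 10, 704 and 581 counts in the control, where replicate 1 stood apart from the other two (log2 fold change -8.39, SE 1.58, adjusted p = 0.0024). Both remained called when any 1 of the 6 libraries was left out. Leaving out control replicates 1 and 3 in turn gave gene_10199 a fitted value of -10.49 and -11.80. Leaving out replicate 1 of day 7 gave it -12.09, and the first and second replicates of day 3 in turn gave -9.98 and -8.93. That of gene_1203 was -8.97 without control replicate 1 and -9.56 without replicate 1 of day 7.

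Of the called genes, 281 of 541 higher and 580 of 880 lower remained called in each of 6 fits that leave out 1 day 7 or control library. Scaled counts did not overlap between the 3 day 7 and the 3 control libraries in 479 of the higher and 823 of the lower genes, against 4899 of all 11386 genes tested and a background of 12.5% called. The first series holds only replicate 1 of day 7 beside the controls. That library lay beyond all 3 controls in the called direction in 540 of 541 higher and 875 of 880 lower genes, and in 7828 of all genes tested in the direction of their own fold change. The same libraries made the calls, so these counts and those of no overlap are a description and not a separate check.

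The libraries contributed unequally to the calls. All 3 day 7 libraries differed from the control mean by 2-fold or more in 289 of the higher and 595 of the lower genes. In 124 higher and 114 lower genes replicate 1 alone did so. In 50 higher and 41 lower genes both replicates of the second series were less than 1.5-fold from the control mean. Without replicate 1 of day 7, 342 of the 541 higher and 643 of the 880 lower genes were still called. In a fit of the first series alone, 130 genes were higher and 348 lower, and 109 and 306 of them were also called in the same direction over both series. The lone day 7 library was assumed there to vary like the controls, and the second series holds no control.

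Day 7 had more called genes than the other wood days in this fit: 1421, against 1042 at day 3 (9.15% of genes tested), 1138 at day 5 (9.99%) and 1213 at day 11 (10.7%). All 4 comparisons use the same 3 control libraries. Days 3, 5 and 7 each have 1 library in the first series with the controls, whereas all 3 day 11 libraries belong to the second series, so day 11 was set against the control through the series term alone. The median SE over genes was 0.280 at day 11 and 0.244 to 0.245 at the other wood days, which bears on the count at day 11 and on whether a gene was called at day 7 alone or was largest at day 7. At all 4 days 206 genes were called higher and 438 lower. A count of calls does not test whether the days differ, which was done by comparing the wood days with each other.

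Few genes passed the direct tests between days. Day 7 against day 3 gave 28 called genes (0.246% of genes tested), 4 higher and 24 lower at day 7. Day 7 against day 5 gave 1 (0.00878%), and day 11 against day 7 gave 1 (0.00878%). At an unadjusted p under 0.05 these comparisons held 1914, 533 and 1238 genes (edgeR). The 28 genes became 4 without replicate 2 of day 7, 7 without replicate 3 of day 7, 12 without replicate 2 of day 3 and 17 without replicate 1 of day 5. With 1 library left out, the other 2 comparisons gave 0 to 4 and 0 to 3 genes.

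Genes called at day 7 but at neither day 3 nor day 5 numbered 359, of which 159 were higher and 200 lower. Of these, 62 higher and 77 lower genes were called again at day 11, and 97 higher and 123 lower genes were called at day 7 alone. The 159 higher genes had median log2 fold changes of 0.79, 0.92, 1.16 and 1.08 at days 3, 5, 7 and 11, and the 200 lower genes had -0.78, -0.90, -1.19 and -1.04. The medians at day 7 are high in size because the genes were chosen there. At both day 3 and day 5, 7 of the 159 higher and 10 of the 200 lower genes were under 1.5-fold, against 6072 of all 11386 genes. These days share the control libraries by which the genes were chosen, so the counts are a description. Tested directly, 1 higher and 4 lower genes of the 359 were called between day 7 and day 3, and none between day 7 and day 5, where 21 and 52 had an unadjusted p under 0.05 (edgeR). In the 6 fits that leave out a library, 45 of the higher and 53 of the lower genes stayed called against the control each time.

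**Figure D3:**
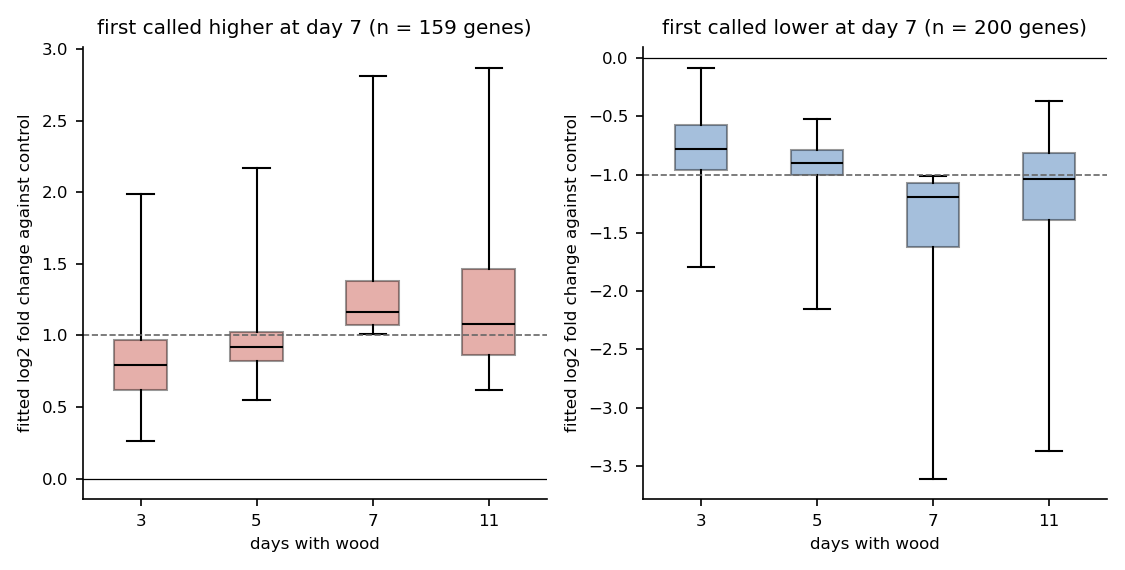
Fitted log2 fold change against control at days 3, 5, 7 and 11 with wood, for the 159 genes first called higher (left panel) and the 200 genes first called lower (right panel) at day 7. Boxes span the quartiles with the median as a line, whiskers the 5th to 95th percentiles over genes, and the dashed line is the 2-fold limit; the boxes at days 3 and 5 lie mostly inside the limit, and all 4 days share the control libraries.

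Among the higher first-called genes, the largest changes lost their call when single libraries were left out. Gene_9555 had 19.5, 21.3 and 21.2 FPKM at day 7 and 0, 0 and 2.30 FPKM in the control (log2 fold change 4.02, SE 1.33, adjusted p = 0.042). Its log2 fold changes of 3.96 at day 3 and 3.63 at day 5 (adjusted p = 0.060 and 0.068) were almost as large, and its call at day 7 did not survive in 5 of the 6 leave-out fits. The fitted value rests on control replicate 3, which held the control's 94 counts: without that library it was 12.63, and with any other single library left out it was 3.42 to 4.19. Gene_6750 had 38.2, 34.0 and 58.3 FPKM at day 7 and 9.70, 3.21 and 2.53 FPKM in the control (log2 fold change 3.59, SE 1.20, adjusted p = 0.044, also lost in 5 of 6). Without control replicate 1 its log2 fold change was 4.33. At day 5 it had 33.7, 25.8 and 53.2 FPKM, with a log2 fold change of 3.38 (adjusted p = 0.062).

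The fitted change of gene_9202 was largest at day 7. It had 7.90, 7.54 and 11.1 FPKM at day 7 and 1.49, 0.936 and 2.93 FPKM in the control (log2 fold change 2.22, SE 0.76, adjusted p = 0.047, lost in 5 of 6). At day 3 it had 2.33, 1.83 and 9.95 FPKM, so 1 day 3 library was as high as those of day 7. Day 11 against day 7 gave a log2 fold change of -2.17 (SE 0.70) with an adjusted p of 0.31.

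Other genes first called at day 7 were called in all 6 such fits. Gene_6533, gene_10107, gene_11774 and gene_9037 were chosen from them after their values were seen. Gene_6533 had 56.0, 43.9 and 52.5 FPKM at day 7 and 16.7, 14.0 and 11.7 FPKM in the control (log2 fold change 1.42, SE 0.19, adjusted p = 0.00029). At day 5 its log2 fold change of 0.99 had an adjusted p of 0.0033, so it missed the earlier call by size alone. Gene_10107 had 18.3, 16.5 and 18.4 FPKM at day 7 and 7.79, 6.26 and 6.69 FPKM in the control (log2 fold change 1.52, SE 0.40, adjusted p = 0.014), and without replicate 1 of day 7 its log2 fold change was 2.10. At day 3 it had 18.2, 11.8 and 7.37 FPKM, with a log2 fold change of 1.00 (adjusted p = 0.084). Neither gene_6533 nor gene_10107 passed the edgeR test between day 7 and day 3 (adjusted p = 0.096 and 0.48) or between day 7 and day 5. Gene_11774 had 8.57, 7.23 and 4.69 FPKM at day 7 and 1.95, 2.15 and 2.78 FPKM in the control. Its fitted values of 0.24, 0.99, 1.36 and 1.99 on the log2 scale at days 3, 5, 7 and 11 increased at each step (adjusted p = 0.0049 at day 7). Between wood days, day 7 against day 3 (adjusted p = 0.067), day 7 against day 5 and day 11 against day 7 (adjusted p = 0.42) did not pass the edgeR test for gene_11774.

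Among the lower ones, gene_9037 had 97.1, 35.6 and 59.5 FPKM at day 7 and 540, 512 and 625 FPKM in the control (log2 fold change -3.29, SE 0.75, adjusted p = 0.0072). Its day 5 libraries ranged from 80.0 to 438 FPKM, and its day 3 libraries from 98.1 to 330 FPKM. The day 7 libraries were thus all low, while the earlier days were mixed. The day 11 libraries of gene_9037 were all low too, with 66.5, 83.0 and 45.0 FPKM (fitted change -3.05, adjusted p = 0.025). Neither day 7 against day 3 (adjusted p = 0.20) nor day 7 against day 5 passed the edgeR test for this gene. Gene_2672, also among the largest first-called changes, had 2.84, 1.16 and 0.0386 FPKM at day 7 and 12.5, 13.7 and 14.7 FPKM in the control (log2 fold change -3.33, SE 0.88, adjusted p = 0.015). Without replicate 1 of day 7 its log2 fold change was -4.42. It was already low earlier, with 1.85, 3.26 and 2.28 FPKM at day 3 and 3.82, 1.28 and 1.36 FPKM at day 5, and its fitted changes at days 3, 5 and 11 were -1.85, -2.44 and -2.28.

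The fitted change was largest at day 7 in 240 of the 541 higher genes (44.4%) and in 471 of the 880 lower genes (53.5%). Over all genes tested the share was 3349 of 11386 (29.4%), and calling genes at day 7 itself favours that day. Day 11 held the largest change of 34.6% of the higher and 26.0% of the lower genes. The margin of day 7 over the next largest day was small: it exceeded 0.5 on the log2 scale in 10 higher and 65 lower genes, and 1 in 4 higher and 10 lower genes. Of the genes called at all 4 days, 60 of 206 higher and 218 of 438 lower had their largest change at day 7.

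**Figure D4:**
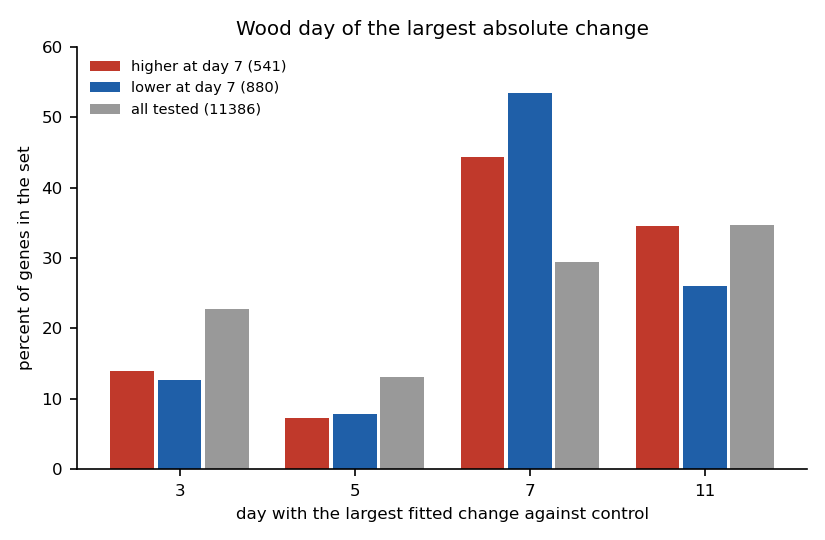
Share of genes (percent, vertical axis from 0) whose largest absolute fitted log2 fold change against control fell at day 3, 5, 7 or 11 with wood, for the 541 genes higher at day 7 (red), the 880 genes lower at day 7 (blue) and all 11386 genes tested (grey). Day 7 holds 44.4% and 53.5% of the called genes and 29.4% of all genes; the called genes were chosen at day 7.

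Several abundant genes fell at all 4 days and furthest at day 7; those given here were chosen after their values were seen. Gene_3058 had 165, 34.3 and 49.8 FPKM at day 7 and 2279, 2733 and 3104 FPKM in the control (log2 fold change -5.01, SE 0.49, adjusted p = 4e-05). Its fitted changes at days 3, 5, 7 and 11 were -3.85, -3.65, -5.01 and -4.21. Gene_2984 had 58.7, 11.3 and 19.8 FPKM at day 7 and 456, 596 and 614 FPKM in the control (log2 fold change -4.18, SE 0.52, adjusted p = 0.00021), with -3.32, -2.97, -4.18 and -3.16 over the 4 days. In both genes replicate 1 of day 7 overlapped the other wood days, while replicates 2 and 3 lay below every library of those days. Without replicate 1 the log2 fold change was -5.83 for gene_3058 and -4.89 for gene_2984. No difference between wood days passed the adjusted test for either gene (adjusted p = 0.16 to 1.00 for gene_3058 and 0.34 to 1.00 for gene_2984).

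Gene_5741 had 28.8, 21.2 and 22.4 FPKM at day 7 and 144, 169 and 109 FPKM in the control (log2 fold change -2.58, SE 0.37, adjusted p = 0.00046). Gene_6435 had 14.8, 8.08 and 6.45 FPKM at day 7 and 39.0, 38.9 and 50.0 FPKM in the control (log2 fold change -2.48, SE 0.44, adjusted p = 0.0016), and without replicate 1 of day 7 its log2 fold change was -3.10. On the higher side, gene_5850 had 52.5, 55.5 and 72.2 FPKM at day 7 and 4.73, 3.63 and 2.94 FPKM in the control (log2 fold change 3.37, SE 0.43, adjusted p = 0.00023). Gene_8833 had 17.4, 34.9 and 27.5 FPKM at day 7 and 5.04, 3.57 and 3.92 FPKM in the control (log2 fold change 1.79, SE 0.20, adjusted p = 9.9e-05). Each of these genes separated day 7 from the control in every library, and in each the adjusted p between day 7 and days 3, 5 or 11 was 0.13 or more.

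**Figure D5:**
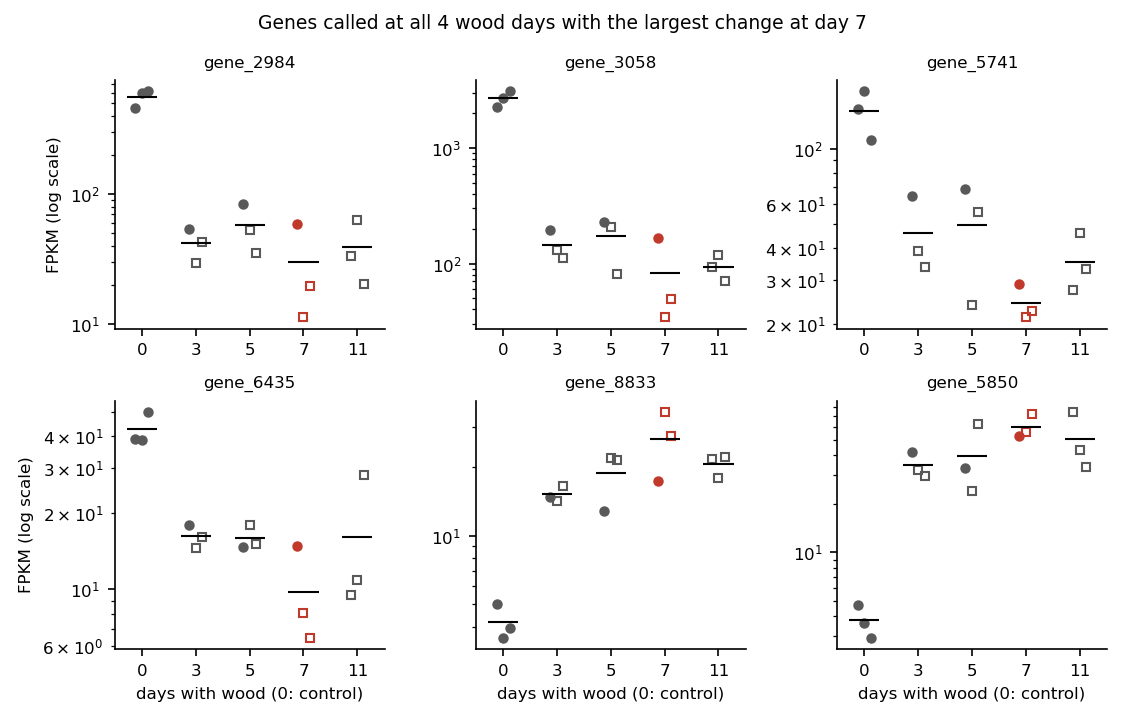
Deposited FPKM (log scale) of 6 genes called at all 4 wood days with their largest change at day 7, by days with wood (0 is the control). Filled circles are libraries of the first series, open squares those of the second, lines are means of 3 libraries and day 7 is red; gene_3058 falls to 34.3 to 165 FPKM at day 7 against 2279 to 3104 FPKM in the control.

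Gene_3168 and gene_7176 were among the 3 genes in each direction with the largest margin of day 7 over the other days, within the limits of 10 CPM and no overlap of scaled counts between day 7 and control. Both were called in all 6 leave-out fits. Gene_3168 had 18.3, 22.8 and 2.53 FPKM at day 7 and 0.428, 0.817 and 1.15 FPKM in the control (log2 fold change 4.40, SE 0.86, adjusted p = 0.0029). Without replicate 2 of day 7, its highest library, the log2 fold change was 3.6. It was thus high in 2 of the 3 day 7 libraries, and also in 1 day 5 library at 17.6 FPKM. At day 5 gene_3168 was already called higher (log2 fold change 3.27, adjusted p = 0.011). Gene_7176, whose low day 7 values are given above, had 0.534, 9.17 and 7.03 FPKM at day 3, 0.917, 0.674 and 12.7 FPKM at day 5 and 1.09, 38.8 and 60.3 FPKM at day 11. All 3 day 7 libraries were low, whereas the other days held low and high libraries. Gene_7176 was also called lower at days 3 and 5 (adjusted p = 0.044 and 0.036). Between day 7 and days 3, 5 or 11, neither gene_3168 nor gene_7176 passed the edgeR test (adjusted p = 0.12 or more).

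Gene_10714 had 2.10, 2.94 and 0.474 FPKM at day 7 and 17.1, 6.86 and 20.4 FPKM in the control (log2 fold change -3.26, SE 0.98, adjusted p = 0.029), and it lost its call in 3 of the 6 leave-out fits. Without replicate 1 of day 3 its log2 fold change was -3.85, and without replicate 1 of day 5 it was -2.70 (adjusted p = 0.053). Gene_6276 had 12.3, 14.6 and 26.3 FPKM at day 7 and 34.9, 26.4 and 164 FPKM in the control (log2 fold change -2.59, SE 0.83, adjusted p = 0.038, lost in 3 of 6). Without control replicate 3 it was -1.28 (adjusted p = 0.11). In FPKM its highest day 7 library and its lowest control library nearly met. Gene_209 had 3.42, 2.16 and 0.928 FPKM at day 7 and 2.56, 10.7 and 64.6 FPKM in the control, where FPKM values of the groups overlapped (log2 fold change -3.61, SE 1.18, adjusted p = 0.040, lost in 4 of 6). Without control replicate 3 it was -1.61 (adjusted p = 0.17). Between day 7 and days 3, 5 or 11, none of gene_10714, gene_6276 and gene_209 passed the edgeR test (adjusted p = 0.24 or more).

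In some of the largest changes counts moved against those of the next numbered gene. Gene_2944 had 120159, 10812 and 10704 counts at day 7 and 5342, 5414 and 5262 counts in the control, so it was high in replicate 1 alone. Gene_2945 had 14237, 103523 and 104389 counts at day 7 and 231035, 215559 and 213728 counts in the control, and it was low in that same replicate 1. Summed and scaled, the pair had 3414, 2248 and 2480 CPM at day 7 and 8544, 8419 and 8165 CPM in the control, a log2 ratio of day 7 over control of -1.63. Within day 7 the sum varied far less than either gene, with replicate 1 the highest. Taken alone, gene_2944 was called higher (log2 fold change 2.81, SE 0.76, adjusted p = 0.017) and gene_2945 lower (-2.66, SE 0.67, adjusted p = 0.011). When replicate 1 of day 7 was left out, gene_2944 had a log2 fold change of -0.20 (adjusted p = 0.43) and gene_2945 one of -1.49 (adjusted p = 0.0045). The call of gene_2944 was also lost without any 1 of the 3 control libraries (adjusted p = 0.050 to 0.053).

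Gene_2205 showed the same in the control. It had 1, 1 and 2 counts at day 7 and 7952, 1 and 8090 counts in the control, and was called lower with an adjusted p of 0.0059 although control replicate 2 was as low as the day 7 libraries. Gene_2204 had 8902, 10102 and 10041 counts at day 7 and 1577, 6625 and 1271 counts in the control. The scaled counts of the pair, summed, were 226, 199 and 216 CPM at day 7 and 344, 253 and 349 CPM in the control, a log2 ratio of day 7 over control of -0.56.

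Gene_2368 had 1 count in each day 7 library and 1, 1 and 967 counts in the control, so its call (adjusted p = 0.036) rests on control replicate 3, without which the adjusted p was 0.36. The call was lost in 4 of the 6 leave-out fits. In control replicate 3 gene_2367 had 768 counts, against 2287 and 1895 in the other controls. Gene_6878 had 170, 335 and 325 counts at day 7 and 2260, 3235 and 1750 counts in the control (log2 fold change -4.50, adjusted p = 0.032, lost in 4 of the 6 leave-out fits). Its log2 fold change was -3.72 without replicate 1 of day 3 and -5.41 without replicate 1 of day 5. Gene_6879 had 13061, 17140 and 24077 counts at day 7 and 10955, 6833 and 7801 counts in the control. The scaled counts of each pair, summed, gave a log2 ratio of day 7 over control of 0.19 for gene_2368 with gene_2367 and -0.01 for gene_6878 with gene_6879. Whether such genes lie side by side or share reads was not tested, since the files used here give no positions for reference identifiers. The pairs were noticed in the data.

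Of 616 newly assembled loci tested, which the authors added to the reference genes, 17 were higher (2.76%) and 20 lower (3.25%) at day 7. The shares among reference genes were 4.87% and 7.99%, and the difference was not tested. Trametes_gibbosa_newGene_644, on scaffold 1 from 1019121 to 1023766 (minus strand), had 6.67, 4.59 and 6.36 FPKM at day 7 and 2.11, 2.03 and 1.81 FPKM in the control (log2 fold change 1.49, SE 0.31, adjusted p = 0.0036). Trametes_gibbosa_newGene_645, on scaffold 22 from 299655 to 301015 (minus strand), had 3.15, 2.85 and 2.70 FPKM at day 7 and 8.21, 6.90 and 7.62 FPKM in the control (log2 fold change -2.0, SE 0.41, adjusted p = 0.0034). Both kept the day 7 and control libraries apart, which the rule that named them required of scaled counts. They were called at all 4 wood days, and their fitted changes were largest at day 5 (1.80 and -2.33).

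Some new loci lie opposite each other, and the labels do not state that strand was used in counting. Trametes_gibbosa_newGene_708, on scaffold 26 from 61181 to 65550 (minus strand), had 1.41, 0.811 and 0.927 FPKM at day 7 and 1.57, 1.96 and 4.92 FPKM in the control (log2 fold change -1.85, SE 0.49, adjusted p = 0.015). Without control replicate 3, its highest control library, the log2 fold change was -1.16 (adjusted p = 0.034). It overlaps Trametes_gibbosa_newGene_707 on the plus strand, which was also called lower, between 61181 and 62836, and reads from that stretch cannot be told apart without strand. Of the 37 called new loci, 6 higher and 7 lower overlap another new locus on the opposite strand (35.1%), against 136 of the 616 tested (22.1%), and the difference was not tested.

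Gene_11960 and gene_5750 had the smallest p of the 24 genes lower at day 7 than at day 3. Gene_11960 had 49.6, 62.2 and 68.5 FPKM at day 7 and 169, 253 and 220 FPKM at day 3, and the control had 31.1, 33.3 and 28.1 FPKM. Day 7 against day 3 gave a log2 fold change of -1.86 (SE 0.15, adjusted p = 0.00074), and day 7 against control one of 0.19 (adjusted p = 0.44). Gene_5750 had 9.81, 9.24 and 8.76 FPKM at day 7 and 20.1, 17.7 and 22.0 FPKM at day 3 (log2 fold change -1.20, SE 0.11, adjusted p = 0.00079), with 4.55, 3.86 and 4.15 FPKM in the control.

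Gene_1152 and gene_10586 went the other way. Gene_1152 had 10.2, 9.59 and 8.25 FPKM at day 7 and 6.38, 3.02 and 2.64 FPKM at day 3 (log2 fold change 1.23, SE 0.19, adjusted p = 0.016). Gene_10586 had 60.2, 99.4 and 101 FPKM at day 7 and 15.7, 61.9 and 39.8 FPKM at day 3 (log2 fold change 1.04, SE 0.20, adjusted p = 0.044). The lowest day 7 library of gene_10586 was below the highest day 3 library in FPKM. The control had 5.4, 5.8 and 5.3 FPKM for gene_1152 and 29.9, 35.1 and 35.8 FPKM for gene_10586. Neither gene was called at day 7 against the control, with log2 fold changes of 0.71 and 0.42 (edgeR, adjusted p = 0.029 and 0.18). At day 3 their fitted log2 fold changes against the control were -0.52 and -0.61. Over the fits that leave out 1 of the 15 libraries, the call between days was lost in 12 for gene_10586 and in 4 for gene_1152.

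The single gene called between day 7 and day 5 was gene_4338, with 35.4, 40.7 and 42.2 FPKM at day 7 and 13.0, 19.5 and 17.8 FPKM at day 5 (log2 fold change 1.17, SE 0.13, adjusted p = 0.018). The control had 28.9, 24.2 and 21.9 FPKM. Of the 4 wood days it was called against the control at day 5 (log2 fold change -1.17, adjusted p = 0.00032), and at day 7 the fitted log2 fold change was 0.00 (adjusted p = 0.99). Its call between days 7 and 5 was lost in 5 of the 15 leave-out fits. The single gene called between day 11 and day 7 was gene_4914, with 157, 193 and 198 FPKM at day 11, 63.9, 86.3 and 80.0 FPKM at day 7 and 188, 240 and 244 FPKM in the control. Its log2 fold change was 1.12 for day 11 against day 7 (SE 0.13, adjusted p = 0.038, lost in 12 of the 15 leave-out fits) and -2.29 for day 7 against control (SE 0.15, adjusted p = 3.7e-06). Its fitted changes against the control were -1.38, -1.78, -2.29 and -1.17 at days 3, 5, 7 and 11, so the lowest of the 4 was at day 7.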

How the data were processed

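Poly-A RNA was sequenced as paired-end reads, following the labels' protocols. HISAT2, StringTie, DESeq 1.10.1 and DESeq2 are named in the submitters' processing notes. A genome build and an annotation version were not given in the sources used here. Deposited by the authors were whole-number estimated counts and, separately, FPKM values per gene and library. In the count table the column of the third day 5 library carries no matching replicate number, so it was used as an unnumbered day 5 library of the second series.

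Of 12885 listed genes (12038 reference identifiers, 847 new loci), 11386 passed filterByExpr. Counts were scaled by TMM and fitted over all 15 libraries with group and library series as terms (edgeR 4.0.16 in R 4.3.3, robust quasi-likelihood, 9 residual degrees of freedom). Biological variation between libraries of a group had a coefficient of 38.8%. FPKM was used for levels and for limma 3.58.1 alternatives, and DESeq2 1.42.0 was another alternative. Each SE was derived from the F statistic, as the absolute log2 fold change over the root of F. Fitted changes include the series term and need not equal ratios of the printed values.

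Genes were named by rule among called genes with a mean of 10 CPM or more and no overlap of scaled counts: the 4 largest changes called in all 6 leave-out fits, the 4 largest FPKM differences, the 4 largest first called at day 7, the 3 largest margins over other days and up to 2 new loci in each direction, and up to 2 genes per direction between days. Only 1 new locus qualified as higher. Genes, lists and rules were chosen with earlier results of these data known. Gene lists by product could not be matched to identifiers and were not used. All pairs of day 7 or control libraries differed beyond sampling noise, with a chi-square of 108 to 292 for each degree of freedom. The procedure was tested on simulated counts.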

Additional observations from a re-analysis of the deposited data

Results flagged for a closer look

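The difference between wood days was tested directly, and some genes passed. Day 7 against day 3 gave 28 genes, of which gene_11960 and gene_5750 had the smallest p among those lower at day 7. Day 7 against day 5 gave 1 gene, gene_4338, and day 11 against day 7 gave 1 gene, gene_4914.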

How the results depend on the processing

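Each of the 35 named gene values was recomputed under the alternatives, 1038 values in all. Of these 836 kept direction and call, 201 kept direction without the call, and 1 turned: gene_2944, at -0.20 without replicate 1 of day 7 and between -0.20 and 3.13 over all fits with 1 library left out. The 541 higher and 880 lower genes were 1830 and 464 with library totals, 1371 and 424 with limma on log2(FPKM + 1), 1886 and 479 with a pseudocount of 0.1, 130 and 348 in the first series alone, and 80 and 293 when the 2-fold limit was part of the test (glmTreat). With only the 2 groups fitted, 327 were higher and 633 lower. The 359 genes first called at day 7 were 616 with library totals, 159 in the first series, 673 with the pseudocount of 0.1 and 130 with glmTreat. Leaving out 1 library gave 437 to 573 higher, 741 to 871 lower and 255 to 415 first called. The 28 genes of day 7 against day 3 were 161 in DESeq2, 6 without the series term, 6 with 2 groups, 46 with the pseudocount of 0.1, 0 with glmTreat and 4 to 31 with 1 library left out. For day 7 against day 5 the 1 gene became 26 in DESeq2, 0 without the series term, 0 with glmTreat, 0 without the 3 day 11 libraries (an alternative added after seeing the data) and 0 to 4 with 1 library left out. Day 11 against day 7 gave 2 with upper-quartile factors, 3 with RLE factors, 2 with library totals, 87 in DESeq2, 0 without the series term, 4 with 2 groups, 8 and 7 with limma at pseudocounts of 1 and 0.1, 3 when genes ranging 100-fold in any group were dropped, 0 with glmTreat and 0 to 3 with 1 library left out. With a replicate block the counts were 393 higher and 699 lower, 15 for day 7 against day 3 and 3 for day 11 against day 7. The replicate numbers were not taken as pairs, since the labels do not say that a number marks a shared batch. Same-numbered day 7 and control libraries had deviations with correlations of -0.01 to 0.04, and not every library correlated best with its own number. The day 7 deviations also hold the split between series, so these correlations cannot decide whether the libraries are paired. The causes of these differences were not tested. The smaller fits hold fewer libraries, and glmTreat sets a stricter limit. All controls belong to the first series, and low counts limit the genes near 0 in a group.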
